A study of Mus musculus with 31 samples.

Results

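Expression of 10 genes that mark or drive the epithelial-mesenchymal transition was followed across all RNA sequencing samples of Panc02 cells, a murine pancreatic adenocarcinoma line. The genes were taken by symbol from the 3 count tables and had 1 entry each in every table, which makes 10 of the 60172 genes listed in the series. They are the cadherins Cdh1 (E-cadherin) and Cdh2 (N-cadherin), the epithelial adhesion molecule Epcam, the mesenchymal proteins Vim (vimentin) and Fn1 (fibronectin), and the transcription factors Zeb1, Zeb2, Snai1, Snai2 and Twist1.

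In this transition, epithelial cells give up the junctions that hold them to their neighbours and take on the filaments, the matrix and the motility of mesenchymal cells. The zinc finger factors of the Snail and Zeb families bind DNA at E-boxes and repress epithelial genes, of which Cdh1 is the best known, while Twist1, a basic helix-loop-helix factor, acts in the same network. Loss of E-cadherin with gain of N-cadherin is known as the cadherin switch, and in pancreatic cancer the program is linked with invasion and resistance to drugs.

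Samples were in 31 libraries of 11 groups. WT Panc02 spheroids in Matrigel were kept in control medium (Ctrl), in medium conditioned by untreated bone marrow-derived macrophages (M0-CM) or in medium conditioned by macrophages given IFNγ and LPS (M1-CM), with 3 samples each. WT and Cxcl5-/- cells were grown in flat (2D) or spheroid-in-Matrigel (3D) culture, with 3 samples in each of the groups 2D WT, 2D Cxcl5-/-, 3D WT and 3D Cxcl5-/-. The remaining table, named rescue here, held 3D-cultured WT (2 samples), Cxcl5-/- (2 samples), Hif1aOE Cxcl5-/- (3 samples) and MycOE Cxcl5-/- cells (3 samples). In it the sample titles of WT and Cxcl5-/- have another form than those of the overexpression lines. Cxcl5 encodes a neutrophil-attracting chemokine and was deleted with lentiCRISPRv2 and puromycin selection. Both overexpression lines carry that deletion too, with a retroviral vector for a stabilized mutant Hif1a, the hypoxia factor, or for Myc, the growth factor-response oncogene. Whether each line is a single clone is not given in the sources used here.

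E-boxes of the sequence CAGGTG or its complement CACCTG, which Snail and Zeb factors recognise, were looked for in the 250 bases before the start of the 5 members with a RefSeq promoter window (GRCm38.p6), Vim, Epcam, Zeb2, Snai1 and Twist1. Windows of Cdh1, Cdh2, Fn1, Zeb1 and Snai2 were not analysed here. The windows of the epithelial member Epcam (chr17:87635729-87635978, plus strand) and of Snai1 (chr2:167537945-167538194, plus strand), a Snail factor itself, are shown because they hold the match, and that of Vim (chr2:13574061-13574310, plus strand) because Vim had the largest fall in 3D-cultured cells carrying the Cxcl5-/- label. Capitals mark CAGGTG or CACCTG, read 5′ to 3′ towards the gene.
Epcam: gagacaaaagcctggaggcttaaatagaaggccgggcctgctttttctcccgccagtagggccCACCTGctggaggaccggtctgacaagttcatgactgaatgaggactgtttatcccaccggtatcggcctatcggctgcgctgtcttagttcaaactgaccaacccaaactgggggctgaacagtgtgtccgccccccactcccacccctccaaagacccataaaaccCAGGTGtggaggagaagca
Snai1: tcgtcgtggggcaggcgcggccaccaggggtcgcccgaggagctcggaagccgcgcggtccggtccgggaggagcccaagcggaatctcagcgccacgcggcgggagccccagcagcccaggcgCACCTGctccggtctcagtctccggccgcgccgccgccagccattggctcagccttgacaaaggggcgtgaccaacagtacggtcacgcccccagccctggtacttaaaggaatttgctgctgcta
Vim: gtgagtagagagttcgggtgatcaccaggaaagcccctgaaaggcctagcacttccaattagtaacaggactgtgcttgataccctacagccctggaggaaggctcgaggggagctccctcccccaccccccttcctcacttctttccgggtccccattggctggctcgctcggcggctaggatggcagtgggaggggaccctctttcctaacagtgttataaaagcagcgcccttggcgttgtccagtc

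Epcam held 2 matches, a CACCTG from 187 to 182 bases and a CAGGTG from 19 to 14 bases before its start. Snai1 held 1, from 126 to 121 bases before its start. The windows of Vim, Zeb2 and Twist1 held neither sequence. Of the 32851 windows of this length, 17.2% held at least 1 such match and 2.06% held 2 or more, and both spellings are the same site read on either strand. A match describes the letters only and does not show a bound site.

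Total counts per sample ran from 43875429 to 78498230 in the conditioned media, from 46973008 to 72361685 in 2D and 3D culture and from 41542533 to 64872036 in the rescue table, and levels are given as CPM, the usual count scaled to library size, here the TMM-scaled library, with each table on its own scale. The rescue WT libraries stood apart from the rest: 43048 and 43037 genes had at least 1 count in them, against 26886 to 31338 in the other 8 libraries of that table. Totals in that table were 41542533 to 43890492 in WT and Cxcl5-/- and 51419869 to 64872036 in the overexpression lines, with TMM factors of 1.09 to 1.14 and 0.857 to 1.03. A difference between these sets of libraries cannot be told apart from overexpression, and its part was not tested. The Cxcl5 transcript was lower under the knockout label in 2D (32.7 to 37.4 against 45.6 to 49.1 CPM) and in the rescue table (36.6 to 40.2 against 64.2 to 67.7 CPM), but it was higher in the libraries labelled 3D Cxcl5-/- (40.9 to 65.5 CPM) than in 3D WT (24.5 to 28.5 CPM). A CRISPR deletion need not remove the transcript, so these counts do not check the label, and the wording "labelled 3D Cxcl5-/-" is kept for that group. Hif1a and Myc were lower under that label (140.0 to 175.5 and 9.12 to 11.4 CPM) than in 3D WT (336.1 to 407.3 and 33.9 to 36.9 CPM), as they were in rescue Cxcl5-/- against rescue WT. Hif1a was 243 to 296 CPM in Hif1aOE Cxcl5-/-, 241 to 271 CPM in MycOE Cxcl5-/-, 133.5 to 143.9 CPM in rescue Cxcl5-/- cells and 303.6 to 324.0 CPM in rescue WT, so that in the Hif1aOE line it lay below WT and overlapped the MycOE line. Myc was 397 to 549 CPM in MycOE Cxcl5-/- and 20.02 to 22.27 CPM in rescue Cxcl5-/- cells, with 46.1 to 49.3 CPM in rescue WT.

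Cdh1, Epcam and Twist1 were absent or close to it in every condition. In the 9 conditioned-medium libraries all 3 genes had 0 counts, which allows at most 0.0381 to 0.0618 CPM per library (the level of 3 counts, for counting error only). Of the 12 libraries in 2D and 3D culture, Cdh1 had 5 counts in 1 and Epcam had 4 counts in 1, both 3D WT, and Twist1 had 0 counts in all. In the rescue table Cdh1 had 11 and 28 counts in WT, 10 and 0 in Cxcl5-/-, 4, 0 and 0 in Hif1aOE Cxcl5-/- and 0 in every MycOE Cxcl5-/- library. Epcam had 25 counts in a single WT library, and Twist1 had 10 and 6 counts in WT and 3 in a single MycOE Cxcl5-/- library. The highest counts of these 3 genes were therefore in the rescue WT libraries, the ones in which the most genes were detected. What part the detection of more genes has in those counts was not tested.

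**Figure D1:**
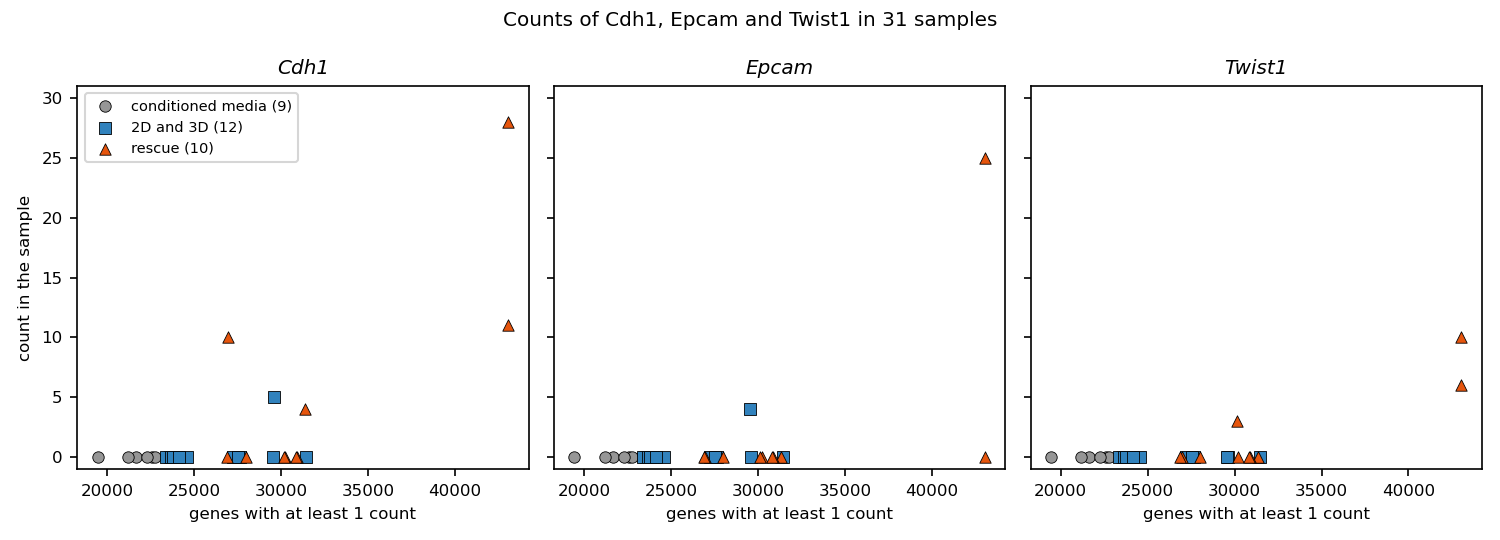
Counts of Cdh1, Epcam and Twist1 in each of the 31 libraries (vertical axis) against the number of genes with at least 1 count in that library (horizontal axis). Nearly all libraries sit at 0, and the highest value, 28 counts of Cdh1, is in a rescue WT library with 43037 genes detected.

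The epithelial markers of pancreatic ductal cells were incomplete in this adenocarcinoma line. Cdh1 and Epcam were at or under 5 counts in every library of 2D and 3D culture, while the keratins Krt8 and Krt18, which pair into the filaments of simple epithelia, reached 569.1 and 346.9 CPM on average in 3D WT. N-cadherin counts exceeded those of E-cadherin wherever both had more than 3 counts, which holds per exon length too in rescue WT, at a mean of 0.352 against 0.0931 CPM per kb. The log2 ratio of Cdh2 to Cdh1 counts was 4.92 in a 3D WT library, 3.62 and 2.15 in rescue WT, 3.41 in a rescue Cxcl5-/- and 5.09 in a Hif1aOE Cxcl5-/- library. The ratio could not be formed in the other libraries, so no genotype or culture was compared by it. These are bulk samples, in which fewer cells of a kind and less RNA per cell cannot be told apart.

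The other 7 members were measured in every group. Per kilobase of exon in 2D WT, Vim stood highest at a mean of 601 CPM per kb, followed by Fn1 (90.2), Zeb2 (5.75), Zeb1 (5.64), Snai2 (1.58), Snai1 (1.15) and Cdh2 (0.189). Zeb2 and Zeb1 overlapped there (5.603 to 5.931 against 5.53 to 5.84 CPM per kb), as did Snai2 and Snai1 (1.39 to 1.85 against 1.00 to 1.41), while the other neighbours in the order did not overlap. In the libraries labelled 3D Cxcl5-/- the order at the top was turned, with Fn1 at 638 and Vim at 148 CPM per kb. Cdh2 was the lowest of the 7 in 2D WT, 3D WT, 2D Cxcl5-/- and under the 3D Cxcl5-/- label.

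The members lie apart in the genome (GRCm38, GENCODE M21): Cdh1 (ENSMUSG00000000303) at chr8:106603351-106670246, Cdh2 (ENSMUSG00000024304) at chr18:16588877-16809246, Vim (ENSMUSG00000026728) at chr2:13573927-13582826, Fn1 (ENSMUSG00000026193) at chr1:71585520-71653200, Epcam (ENSMUSG00000045394) at chr17:87635979-87651129, Zeb1 (ENSMUSG00000024238) at chr18:5591860-5775467, Zeb2 (ENSMUSG00000026872) at chr2:44983632-45117395, Snai1 (ENSMUSG00000042821) at chr2:167538195-167542814, Snai2 (ENSMUSG00000022676) at chr16:14705852-14709385 and Twist1 (ENSMUSG00000035799) at chr12:33957671-33959829. Cdh2, Fn1 and Zeb2 are on the minus strand and the others on the plus strand. Counts cover whole genes, so no exon or isoform is resolved.

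Several members lie across genes of the opposite strand in GENCODE M21: Zeb2 across Zeb2os, Fn1 across Apol7d, Cdh2 across Gm15485, and Zeb1 across Gm10125 and Gm16147. The strand setting of the counting is not given in the sources used here, so reads of such partners cannot be told apart. Zeb2os itself had 2.06 to 23.0 CPM over the 31 libraries, and Zeb2 at least 111.7 CPM.

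The first question was how 3D culture changes these genes in WT cells. All 7 members tested changed between 3D WT and 2D WT, 6 upward and 1 downward, in a comparison in which 44.3% of all genes tested (22.2% higher, 22% lower) passed an adjusted p under 0.05 (edgeR quasi-likelihood test, Benjamini-Hochberg over all genes tested, as for every adjusted p here). Fibronectin and Snai1 rose most, and Zeb1 alone fell. With separate cultures not stated in the labels, these p-values measure the spread between the samples only, which may be technical.

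Fn1, an extracellular matrix glycoprotein that integrins bind, was 947, 1277 and 936 CPM in 2D WT and 2847, 2880 and 3400 CPM in 3D WT. The groups were far apart (log2 fold change 1.53, SE 0.16, adjusted p = 4.36e-06). Vim, the main intermediate filament protein of mesenchymal cells, was 2863, 2681 and 3007 CPM in 2D WT and 4061, 3523 and 3843 CPM in 3D WT. Every 3D library was above every 2D one, but the rise was small (log2 0.42, SE 0.09, adjusted p = 0.0021), and with scaling to library totals it was 0.20 (adjusted p = 0.107). Cdh2 was 1.48, 1.57 and 1.53 CPM in 2D WT and 2.93, 3.34 and 3.08 CPM in 3D WT. The N-cadherin transcript was 2.04-fold higher without overlap (log2 1.03, SE 0.19, adjusted p = 0.000672), from 77 to 110 counts per library in 2D WT and 143 to 167 in 3D WT.

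Among the transcription factors, Snai1, which represses Cdh1 early in the transition, was 1.68, 2.29 and 1.63 CPM in 2D WT and 5.06, 5.30 and 5.53 CPM in 3D WT (log2 1.505, SE 0.26, adjusted p = 0.000341). Snai2, its relative also called Slug, was 2.81, 3.74 and 3.03 CPM in 2D WT and 5.35, 4.81 and 4.999 CPM in 3D WT. Its rise of 0.66 on the log2 scale (SE 0.20, adjusted p = 0.0144) was lost without 2D WT replicate 1 (0.60, adjusted p = 0.0536) and with library totals (0.44, adjusted p = 0.136). Zeb2 and Zeb1, which share 2 zinc finger clusters, moved in opposite directions. Zeb2 was 111.7, 118.3 and 114.3 CPM in 2D WT and 154.9, 180.9 and 165.9 CPM in 3D WT (log2 0.54, SE 0.08, adjusted p = 0.000115), and Zeb1 was 56.8, 56.8 and 60.0 CPM in 2D WT and 38.0, 39.2 and 34.8 CPM in 3D WT. Zeb1 fell by 0.63 on the log2 scale (SE 0.07, adjusted p = 9.08e-06) with no overlap of the groups.

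**Figure D2:**
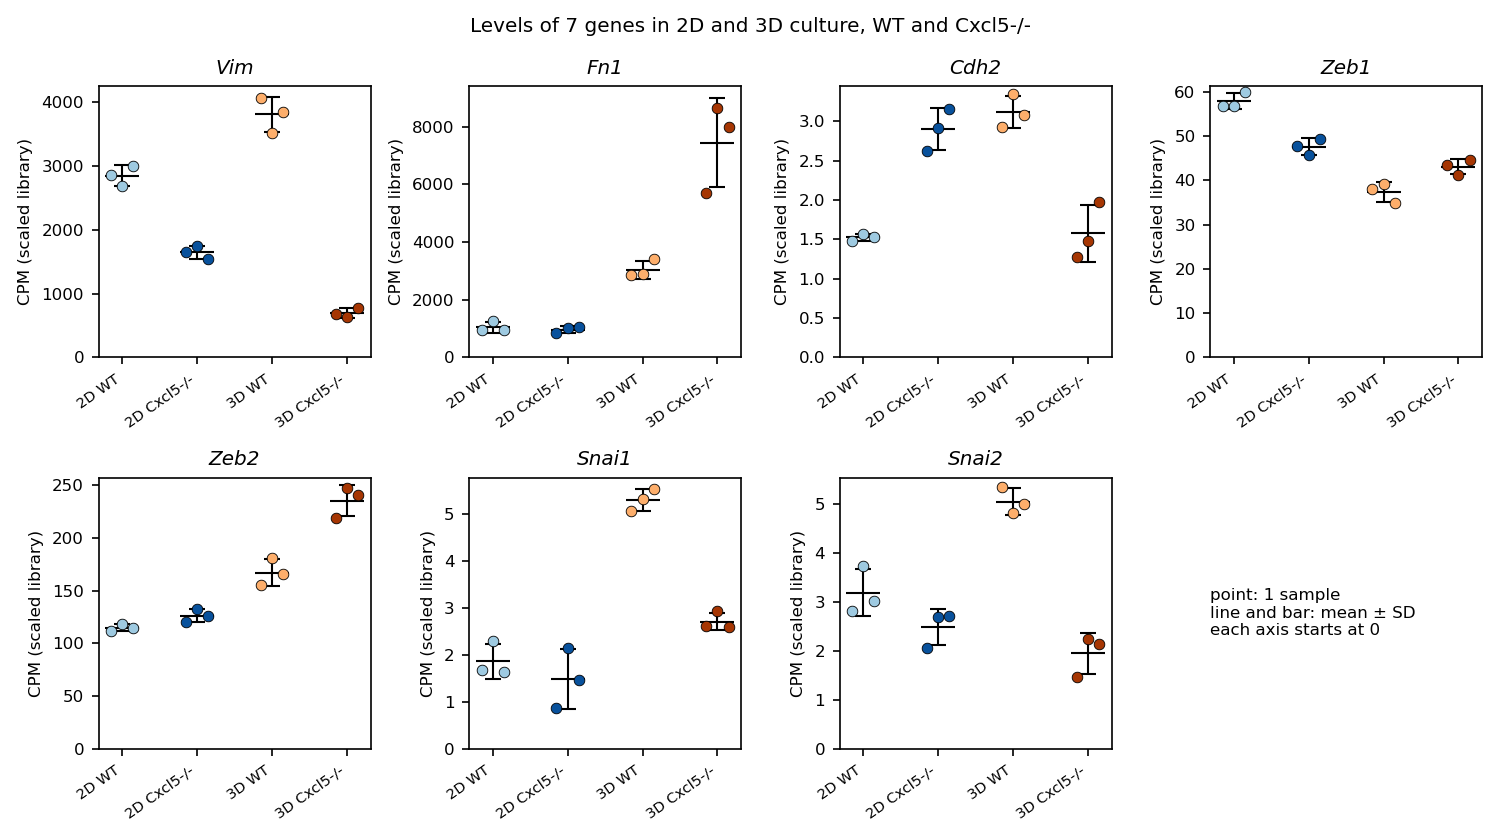
Levels of the 7 measured members in CPM of the scaled library (vertical axes from 0) in 2D WT, 2D Cxcl5-/-, 3D WT and 3D Cxcl5-/- (horizontal axis). Points are samples and the line with its bar is the mean ± SD of 3. Vim is highest in 3D WT and lowest under the 3D Cxcl5-/- label, where Fn1 and Zeb2 are highest.

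The knockout label in 2D culture came with smaller changes. Between 2D Cxcl5-/- and 2D WT, 3 of the 7 members tested passed the threshold, 1 upward and 2 downward, against 7.03% of all genes (3.86% higher, 3.17% lower). Vim was 1647, 1745 and 1542 CPM in 2D Cxcl5-/-, below every 2D WT library (fell by 0.79 on the log2 scale, SE 0.09, adjusted p = 9.39e-05). Cdh2 moved the other way, to 2.62, 2.91 and 3.16 CPM, with no overlap (log2 0.92, SE 0.19, adjusted p = 0.00891). Zeb1, at 47.8, 45.7 and 49.3 CPM, fell by 0.28 (SE 0.07, adjusted p = 0.0309). That call was the least stable, being lost in 8 of the 12 fits that left out 1 sample (adjusted p 0.0515 to 0.190): without any 2D WT or 2D Cxcl5-/- library, without 3D WT replicate 1 or without 3D Cxcl5-/- replicate 3. It was also lost with library totals (adjusted p = 0.15) and without the filter on low counts (adjusted p = 0.168). Fn1 (log2 -0.13, SE 0.16), Zeb2 (0.14, SE 0.08), Snai1 (-0.32, SE 0.27) and Snai2 (-0.36, SE 0.20) did not pass.

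In 3D culture, vimentin and fibronectin parted under the knockout label. All 7 members tested differed between the libraries labelled 3D Cxcl5-/- and 3D WT, 3 upward and 4 downward, where 45% of all genes passed (19.7% higher, 25.3% lower). Vim was 678.6, 638.8 and 782.3 CPM against 4061, 3523 and 3843 CPM in 3D WT, a 5.44-fold lower level (log2 -2.44, SE 0.10, adjusted p = 1.2e-09). Fn1 was 5698, 8655 and 8007 CPM against 2847, 2880 and 3400 CPM, and so rose where Vim fell (log2 1.29, SE 0.16, adjusted p = 2.34e-05). Neither gene's groups overlapped.

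The transcription factors divided in the same comparison. Zeb2 was 218.6, 247.0 and 240.6 CPM under the 3D Cxcl5-/- label, above each 3D WT library (log2 0.49, SE 0.08, adjusted p = 0.000291). Zeb1 was 43.4, 41.1 and 44.5 CPM, also above (log2 0.20, SE 0.07, adjusted p = 0.0347), but this call did not survive in 8 of the 12 fits without 1 sample (log2 0.13 to 0.19, adjusted p 0.0747 to 0.222), namely without any 2D WT library, 2D Cxcl5-/- replicate 2, 3D WT replicate 1 or 3, or 3D Cxcl5-/- replicate 1 or 3. With only the 2 groups compared in the fit it was 0.24 (adjusted p = 0.0717). The Snail factors went down together. Snai2 was 1.47, 2.25 and 2.14 CPM (log2 -1.37, SE 0.20, adjusted p = 9.61e-05) and Snai1 was 2.60, 2.93 and 2.60 CPM (log2 -0.97, SE 0.26, adjusted p = 0.00754), the latter at -0.57 (adjusted p = 0.102) with library totals. Cdh2, at 1.28, 1.47 and 1.97 CPM, was lower than in 3D WT (log2 -0.98, SE 0.19, adjusted p = 0.00103) and the group spanned its 2D WT level of 1.48 to 1.57 CPM.

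Library totals as the scale moved the median log2 fold change of all genes to 0.35 in that comparison and to -0.21 between 3D WT and 2D WT, from -0.039 and 0.002. Vim, Snai2 and Cdh2 kept their fall and Fn1 and Zeb2 their rise under the 3D Cxcl5-/- label on either scale. Markers of other cells were measured beside these genes. The summed level of 8 fibroblast markers was 1206 to 1309 CPM under the 3D Cxcl5-/- label (Thy1 at 3 counts or fewer) and 625.0 to 681.8 CPM in 3D WT. That of 10 ductal markers was 224.7 to 241.8 against 856.8 to 1101 CPM. Most of the ductal sum was Krt8 and Krt18 in both groups, and the ductal keratin Krt7 rose while that sum fell. Dcn fell while the fibroblast sum rose. Such sums follow their most abundant markers and do not show how each marker moved. The 10 macrophage markers summed to 43.4 to 63.4 and 42.7 to 47.1 CPM with Adgre1 at the floor of 3 counts in both, and 7 endothelial markers to 0.351 to 0.485 and 0.561 to 0.830 CPM. The ductal markers Epcam, Cdh1 and Cftr were at 3 counts or fewer under the label. Their part in the members' changes was not tested.

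The genotype effect in 3D differed from that in 2D for 6 of the 7 members tested by the interaction of culture and genotype, which 27.2% of all genes passed (11.1% higher, 16.1% lower). Cdh2 reversed, going from a rise in 2D to a fall in 3D (difference -1.91 on the log2 scale, SE 0.27, adjusted p = 0.000231). Vim fell in both, by 1.65 more in 3D (SE 0.13, adjusted p = 2.09e-06), and Fn1 differed by 1.42 (SE 0.23, adjusted p = 0.000503). Zeb1, down in 2D and up in 3D, differed by 0.49 (SE 0.10, adjusted p = 0.00353), Snai2 by -1.01 (SE 0.28, adjusted p = 0.0174) and Zeb2 by 0.35 (SE 0.12, adjusted p = 0.0389). The Zeb2 difference was lost in 10 of the 12 fits without 1 sample (0.26 to 0.36, adjusted p 0.0714 to 0.141), kept only without 3D WT replicate 2 or 3D Cxcl5-/- replicate 1, and the Snai2 difference was lost with library totals (-0.62, adjusted p = 0.18) and without the filter (-0.92, adjusted p = 0.0543). Snai1 did not pass (-0.64, SE 0.37, adjusted p = 0.221).

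Seen from the cells carrying the knockout label, 3D culture raised Fn1, Zeb2 and Snai1 and lowered Vim and Cdh2. Of the 7 members 5 passed between 3D Cxcl5-/- and 2D Cxcl5-/-, against 57% of all genes (28.7% higher, 28.2% lower). Fn1 went from 833, 1012 and 1052 CPM in 2D to 5698, 8655 and 8007 CPM in 3D, a 7.72-fold rise (log2 2.95, SE 0.17, adjusted p = 9.93e-09). Vim fell by 1.23 (SE 0.09, adjusted p = 1.15e-07), whereas it had risen with 3D culture in WT. Zeb2 rose by 0.90 (SE 0.08, adjusted p = 8.19e-07), Snai1 by 0.86 (SE 0.26, adjusted p = 0.0128) and Cdh2 fell by 0.88 (SE 0.19, adjusted p = 0.00153). Zeb1 (log2 -0.15, SE 0.07) and Snai2 (-0.35, SE 0.20) missed the threshold, with adjusted p of 0.101 and 0.156.

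**Figure D3:**
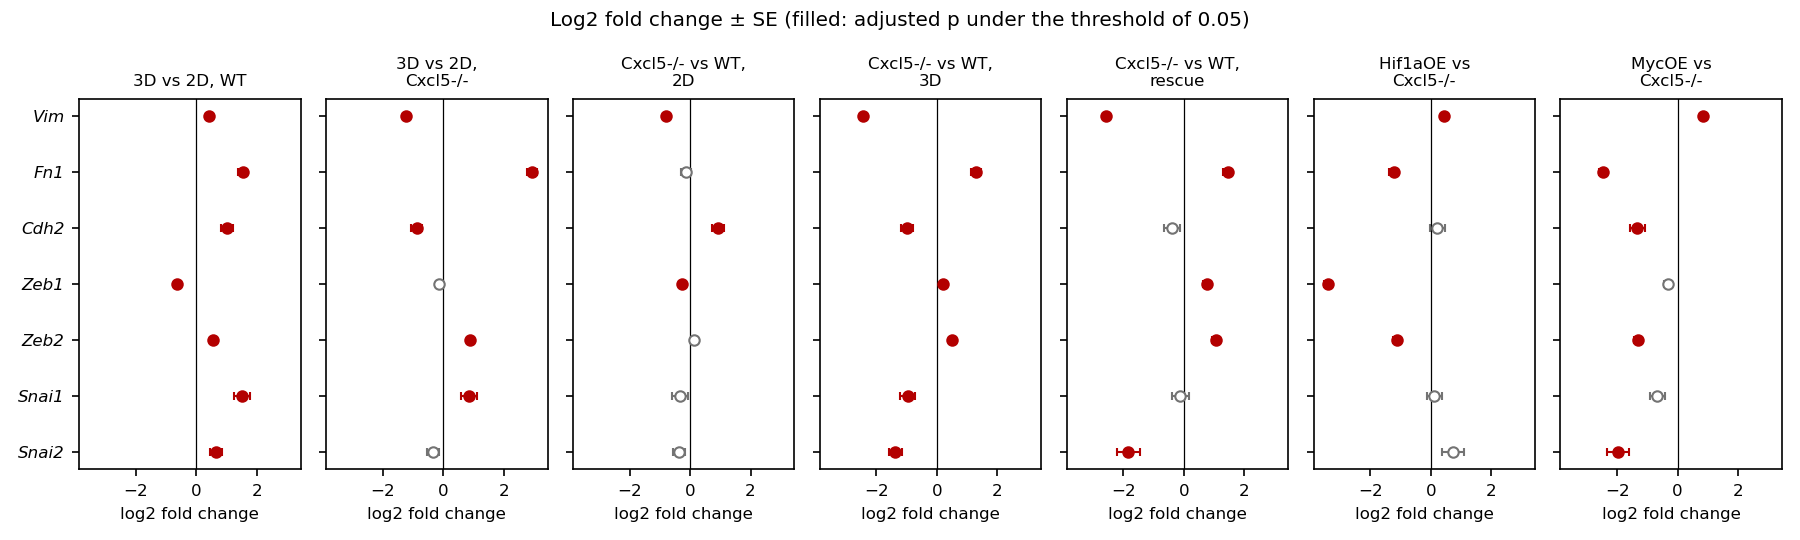
Log2 fold change of the 7 measured members (points) with its SE (bars) in 7 comparisons: 3D with 2D culture in WT and in Cxcl5-/-, Cxcl5-/- with WT in 2D, in 3D and among the rescue samples, and Hif1aOE and MycOE with Cxcl5-/-. Filled points have an adjusted p under 0.05 and open points do not. Vim lies near -2.5 in both comparisons of 3D-cultured Cxcl5-/- with WT cells, and Zeb1 reaches -3.41 with Hif1aOE.

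The rescue samples repeated the comparison of Cxcl5-/- with WT in 3D on other samples. Of the 8 members tested (Cdh1 passed the count filter here through the WT libraries), 5 passed, 3 upward and 2 downward, with 41.9% of all genes passing (17.6% higher, 24.3% lower) and a median log2 fold change of -0.30 over all genes. With at least 10 counts required in every sample, that median was -0.014. Vim was 3327 and 3352 CPM in WT and 568.8 and 543.7 CPM in Cxcl5-/- cells, 6.003-fold lower (log2 -2.59, SE 0.10, adjusted p = 4.59e-08). Fn1 was 4464 and 4581 CPM in WT and 12330 CPM in both Cxcl5-/- libraries (log2 1.45, SE 0.16, adjusted p = 3.98e-05). The opposite course of these 2 mesenchymal genes was thus present in both tables, and the difference between the tables was not tested.

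Zeb2 was 2.09-fold higher, going from 182.2 and 186.7 CPM in WT to 388.9 and 381.1 CPM in Cxcl5-/- cells (log2 1.06, SE 0.12, adjusted p = 5.1e-05). Zeb1 rose from 35.1 and 29.4 to 57.0 and 53.0 CPM (log2 0.77, SE 0.14, adjusted p = 0.00124). Snai2 fell from 7.21 and 8.89 to 2.74 and 1.79 CPM (log2 -1.83, SE 0.38, adjusted p = 0.00291). Both Zeb factors therefore went up where Snai2 went down, and no WT library overlapped a Cxcl5-/- library for any of the 3. With 2 samples in each group that tells little. It held for 7 of the 8 members tested, among them Cdh1 and Cdh2, which did not pass, and its share over all genes was not counted. Snai1 (3.88 and 3.91 against 3.13 and 4.08 CPM, log2 -0.11, SE 0.27) did not pass here, although it did in the first 3D comparison. Cdh2 (2.98 and 2.70 against 2.20 and 2.15 CPM, log2 -0.38, SE 0.27, adjusted p = 0.265) did not pass either, and its groups did not overlap. Cdh1, with 10 and 0 counts against 11 and 28, could not be shown to differ at this depth. Fibroblast markers summed to 1479 to 1513 CPM in Cxcl5-/- and 290.9 to 308.0 CPM in WT libraries, and ductal markers to 295.1 to 311.3 and 862.9 to 909.0 CPM. Their part was not tested.

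**Figure D4:**
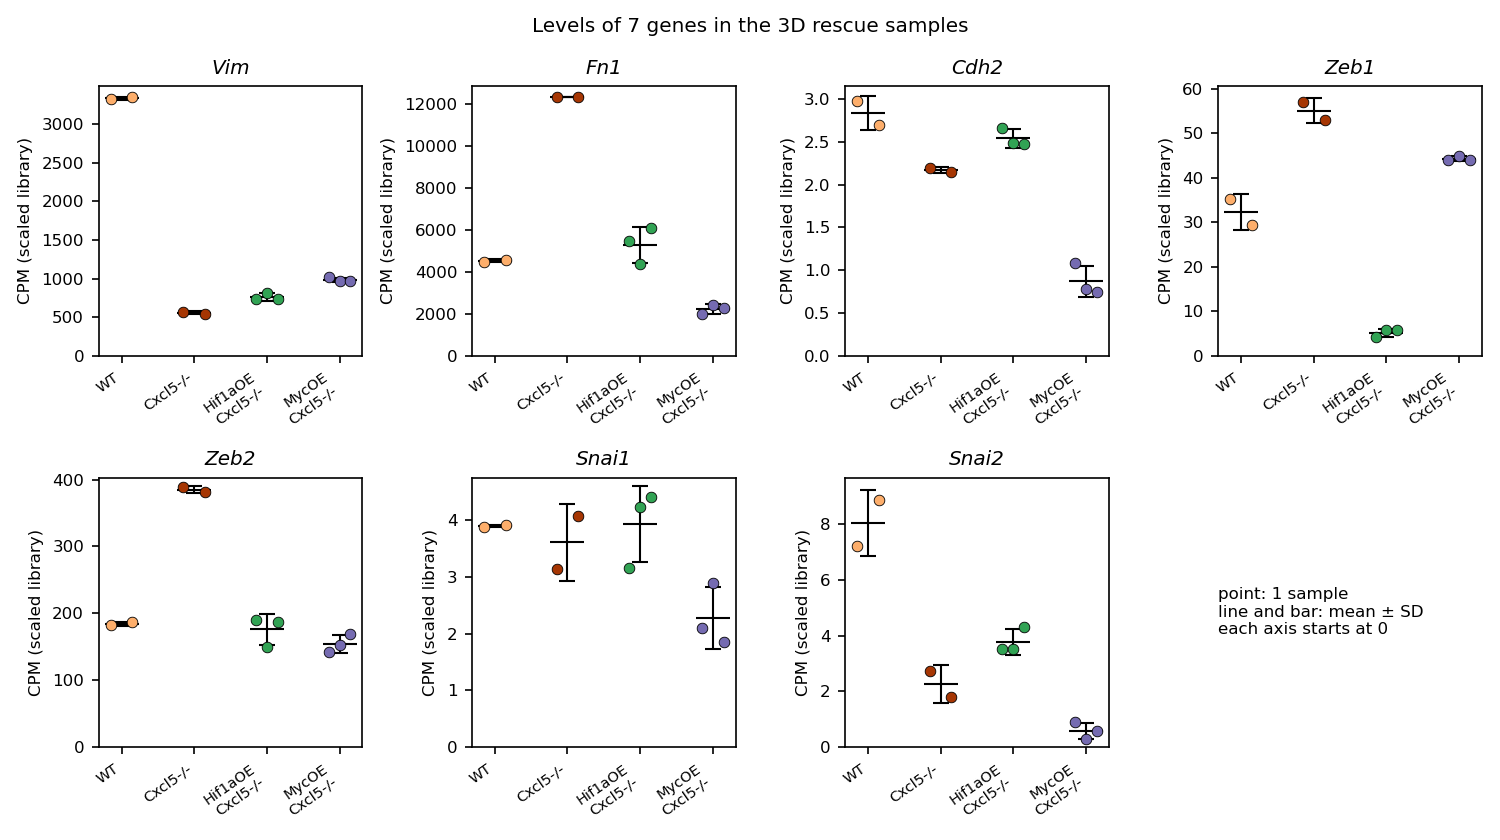
Levels of the 7 measured members in CPM of the scaled library (vertical axes from 0) in the 4 groups of the rescue table. Points are samples and the line with its bar is the mean ± SD of 2 or 3. Zeb1 falls to 4.14 to 5.73 CPM in Hif1aOE Cxcl5-/- cells only, and Snai2 and Cdh2 are lowest in MycOE Cxcl5-/- cells.

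Stabilized Hif1a was then set against the Cxcl5-/- background that carries it, in libraries with another form of title and greater depth. Zeb1 showed the largest change among the members that passed in any comparison. It was 57.0 and 53.0 CPM in Cxcl5-/- and 4.14, 5.73 and 5.66 CPM in Hif1aOE Cxcl5-/- cells, 10.6-fold lower (log2 -3.41, SE 0.13, adjusted p = 4.86e-08). The lowest Hif1aOE library still held 211 counts, so the remaining level was well above the floor. In all, 4 of the 8 members tested passed, 1 upward and 3 downward, against 35.5% of all genes (20.5% higher, 15% lower). Fibroblast markers summed to 623.8 to 733.3 CPM with Hif1aOE and 1479 to 1513 CPM in Cxcl5-/- cells, and ductal markers to 711.4 to 843.4 and 295.1 to 311.3 CPM, and their part was not tested.

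Zeb2 also fell, to 190.2, 149.8 and 187.3 CPM (log2 -1.13, SE 0.11, adjusted p = 1.42e-05). Fn1 fell to 5443, 4345 and 6062 CPM (log2 -1.22, SE 0.14, adjusted p = 5.09e-05). Both were then around their WT levels of 182.2 and 186.7 and of 4464 and 4581 CPM, a comparison that was not tested. Vim rose a little, from 568.8 and 543.7 to 735.9, 815.2 and 730.3 CPM (log2 0.45, SE 0.09, adjusted p = 0.00194), far from its WT level, and with library totals the rise was 0.22 (adjusted p = 0.0611). Snai2 (3.51, 3.51 and 4.30 CPM, log2 0.74, SE 0.35, adjusted p = 0.127), Cdh2 (log2 0.22, SE 0.25) and Snai1 (log2 0.12, SE 0.25) did not pass.

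Myc overexpression left another pattern, again in libraries with another form of title and greater depth than those of Cxcl5-/-. Against Cxcl5-/- cells 5 of the 8 members passed, 1 upward and 4 downward, where 39.6% of all genes passed (21.6% higher, 18% lower). Fibroblast markers summed to 599.9 to 685.9 CPM with MycOE and ductal markers to 272.6 to 316.7 CPM, and their part was not tested. Fn1 went from 12330 CPM in both libraries to 1967, 2430 and 2286 CPM, 5.54-fold lower (log2 -2.47, SE 0.15, adjusted p = 3.89e-07) and below the WT libraries. Snai2 fell to 0.888, 0.283 and 0.564 CPM (log2 -1.961, SE 0.37, adjusted p = 0.0012), with 13 to 42 counts in a library. Cdh2 fell to 1.08, 0.783 and 0.740 CPM (log2 -1.33, SE 0.25, adjusted p = 0.00127). Low as both levels are, neither gene overlapped its Cxcl5-/- libraries, which held for 7 of the 8 members tested. Zeb2 fell to 142.8, 151.9 and 169.1 CPM (log2 -1.32, SE 0.11, adjusted p = 3.31e-06), and Vim rose to 1017, 970.3 and 972.0 CPM (log2 0.83, SE 0.09, adjusted p = 2.24e-05).

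Zeb1, at 43.8, 44.9 and 43.9 CPM in MycOE Cxcl5-/- cells, and Snai1, at 2.09, 2.89 and 1.85 CPM, lay below their Cxcl5-/- libraries without passing (log2 -0.32, SE 0.13, adjusted p = 0.0692, and -0.66, SE 0.25, adjusted p = 0.0554). Both calls depended on the processing. Zeb1 passed with DESeq2's Wald test (adjusted p = 0.028), its size factors (0.0477), library totals (0.00184), at least 10 counts in every sample (0.0138) and only the groups compared (0.0116), and Snai1 with the first 4 of these (0.0408, 0.0482, 0.00769 and 0.0212). Leaving out Hif1aOE replicate 1 gave the Zeb1 call (adjusted p = 0.0209), and leaving out MycOE replicate 2 the Snai1 call (log2 -0.86, adjusted p = 0.022).

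Set directly against Hif1aOE Cxcl5-/-, MycOE Cxcl5-/- cells differed in 6 of the 8 members tested, 2 upward and 4 downward, against 19.3% of all genes (9.54% higher, 9.73% lower). Zeb1 was 8.53-fold higher (log2 3.09, SE 0.13, adjusted p = 6.09e-08) and Vim higher by 0.38 (SE 0.08, adjusted p = 0.00574). Snai2 (log2 -2.70, SE 0.34, adjusted p = 0.00021), Cdh2 (-1.55, SE 0.23, adjusted p = 0.00064) and Fn1 (-1.25, SE 0.13, adjusted p = 5.59e-05) were lower with Myc. Snai1 was lower too (-0.79, SE 0.23, adjusted p = 0.0311), a call lost without the filter (adjusted p = 0.0539) and without Hif1aOE replicate 2 or 3 or MycOE replicate 1 or 3 (-0.74 to -0.66, adjusted p 0.0714 to 0.0991). Zeb2 did not pass (-0.18, SE 0.10, adjusted p = 0.243), but did without Hif1aOE replicate 2 (-0.29, adjusted p = 0.0232). The zinc finger factors thus stood in different proportions in the 2 lines, with Zeb1 low in one and Snai2 low in the other.

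Macrophage-conditioned medium was the other question, and no member passed in it. Of the 7 members tested, 0 passed in M1-CM against Ctrl, M1-CM against M0-CM or M0-CM against Ctrl by edgeR, and 0 by DESeq2, while 0.0156%, 0.0156% and 0% of all genes passed. At an unadjusted p under 0.05 there were 0, 1 and 0 members, the 1 being Vim, beside 903, 498 and 569 of the 19207 genes tested.

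Fn1 had the widest range in CPM between samples of Ctrl, M0-CM and M1-CM, at 8291, 2330 and 4808 CPM in Ctrl, 7530, 3358 and 4270 CPM in M0-CM and 4333, 9673 and 4649 CPM in M1-CM. Those groups overlapped, and the sign of the M1-CM to Ctrl difference (log2 0.27, SE 0.49) turned without Ctrl replicate 2 (-0.06) or M1-CM replicate 2 (-0.19). Vim was 2471, 2203 and 2498 CPM in Ctrl, 2569, 2926 and 2950 CPM in M0-CM and 2067, 1658 and 2539 CPM in M1-CM. Every M1-CM library lay below every M0-CM library (log2 -0.43, SE 0.18, adjusted p = 0.989). So did every Ctrl library (log2 0.24, SE 0.18 for M0-CM against Ctrl), and Ctrl and M1-CM overlapped.

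Snai2 ran from 0.0381 CPM, 3 counts, in Ctrl replicate 2 to 3.36 CPM, 163 counts, in M1-CM replicate 2. Its other Ctrl libraries had 1.02 and 0.226 CPM, those of M0-CM 0.790, 0.701 and 0.513 CPM and those of M1-CM 0.320 and 1.08 CPM. The M1-CM to Ctrl difference of 1.89 (SE 1.06, adjusted p = 0.965) ran from 0.73 without M1-CM replicate 2 to 3.595 without Ctrl replicate 1. Snai1 was lowest in the same Ctrl library, at 1.36 CPM against 5.10 and 5.01 CPM, which also had the fewest genes with a count in the table (19448). Zeb1 stayed between 37.5 and 56.2 CPM, Zeb2 between 184.8 and 264.3 CPM and Cdh2 between 1.16 and 2.02 CPM over the 9 libraries. Macrophage markers summed to 34.6 to 56.1 CPM in all, with Adgre1, Itgam and C1qa at 3 counts or fewer in every group.

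**Figure D5:**
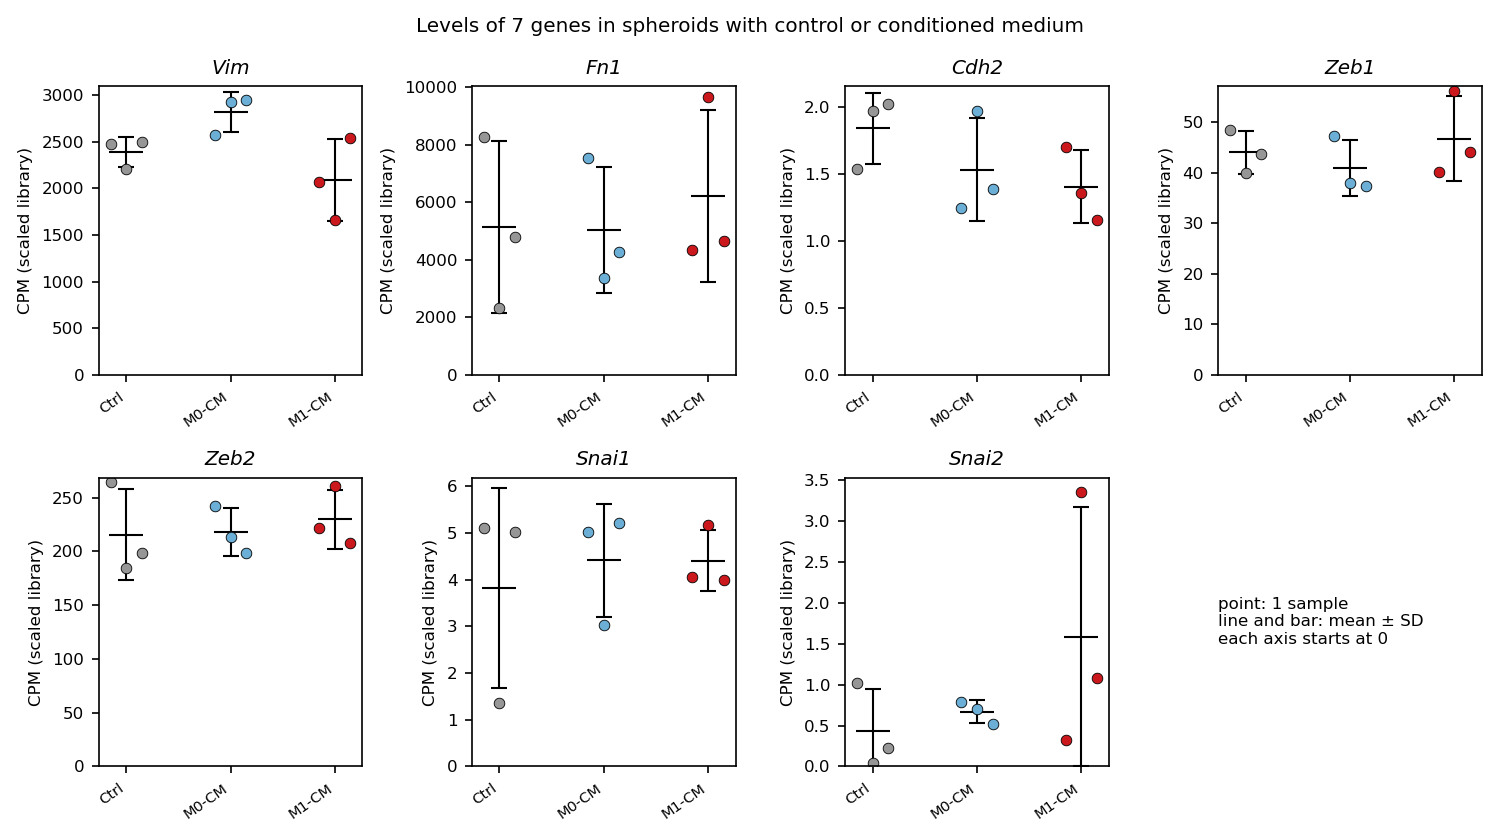
Levels of the 7 measured members in CPM of the scaled library (vertical axes from 0) in Ctrl, M0-CM and M1-CM spheroids. Points are samples and the line with its bar is the mean ± SD of 3. The media overlap for nearly every gene, and the single high Snai2 point is the M1-CM library at 3.36 CPM.

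Genes around the members were counted by list. The counts stand beside 22.2% of all genes higher and 22% lower with 3D culture in WT, 19.7% and 25.3% under the 3D Cxcl5-/- label, 17.6% and 24.3% in rescue Cxcl5-/-, 20.5% and 15% with Hif1aOE and 21.6% and 18% with MycOE. Among 7 other cadherins tested in 2D and 3D culture, Cdh26, which is expressed in epithelia, rose from a mean of 1.82 CPM in 2D WT to 46.6 CPM in 2D Cxcl5-/- (log2 4.66, SE 0.16, adjusted p = 3.24e-09). It was also higher under the 3D Cxcl5-/- label than in 3D WT, at 38.8 against 4.03 CPM (log2 3.27, SE 0.15), and in the rescue Cxcl5-/- cells, at 17.3 against 4.57 CPM (log2 1.92, SE 0.14). Cdh13, an atypical cadherin held by a lipid anchor, rose from 86.8 to 230.2 CPM with 3D culture in WT (log2 1.41, SE 0.10) and was 96.7 CPM under the 3D Cxcl5-/- label (log2 -1.25, SE 0.10). Of the 20 cadherins tested in the rescue table, 10 were lower in Cxcl5-/- than in WT, 9 of these with under 50 counts on average, and 12 had a group at the floor, beside the larger number of genes detected in the WT libraries, whose part was not tested.

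Catenins, which tie cadherins to actin, included Ctnnd1 (p120-catenin), which holds cadherins at the membrane. Ctnnd1 was 336.8 CPM under the 3D Cxcl5-/- label and 105.2 CPM in 3D WT (log2 1.68, SE 0.16, adjusted p = 2.02e-06), and 370.7 against 130.3 CPM in the rescue table (log2 1.51, SE 0.12). It came down to 130.6 CPM with Hif1aOE (log2 -1.50, SE 0.11) and to 159.3 CPM with MycOE (log2 -1.22, SE 0.11). Ctnnb1 (β-catenin) was 645.8 CPM in 3D WT and 667.4 CPM under the 3D Cxcl5-/- label (log2 0.05, SE 0.07) and did not pass. In the list of 11 catenins and partners, 4 rose and 2 fell in that comparison.

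Epithelial junction genes rose more often than they fell with 3D culture in WT, 10 against 1 of 21 tested, with a median log2 fold change of 0.43 beside 0.002 over all genes. The 3D WT libraries also had more genes with a count (29547 to 31449 against 23370 to 24575) and higher summed ductal markers (856.8 to 1101 against 550.0 to 594.9 CPM), whose part was not tested. Under the 3D Cxcl5-/- label 5 rose and 8 fell. The fallers included Cldn1, a tight junction claudin, at 16.7 CPM in 3D WT and 0.0377 CPM under the label, and Pkp2, a desmosomal plakophilin, at 37.7 and 13.1 CPM (log2 -1.52, SE 0.11). Jup, plakoglobin of desmosomes and adherens junctions, went the other way, from 52.6 to 128.0 CPM (log2 1.28, SE 0.11). Among the rescue samples 5 junction genes rose and 11 of 30 fell in Cxcl5-/- cells, 5 of the latter with under 50 counts on average. Of the 30, 10 had a group at the floor, beside the larger number of genes detected in the rescue WT libraries, whose part was not tested. Hif1aOE against Cxcl5-/- gave 9 up and 6 down of 30, with Cldn1 at 4.25 CPM. There too 10 of the 30 had a group at the floor, and 2 of the risers had under 50 counts on average. The list median of 0.74 was 0.11 with genes at the floor set to their bound, beside 0 over all genes in that way.

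Among intermediate filament genes, the family of Vim, 6 of 12 fell and 2 rose under the 3D Cxcl5-/- label, with a median of -0.86 beside -0.039 over all genes. Krt18 was 346.9 CPM in 3D WT and 58.4 CPM under the label (log2 -2.57, SE 0.10, adjusted p = 1.31e-09), and Krt8 was 569.1 and 146.8 CPM (log2 -1.95, SE 0.11). Krt19, a ductal keratin, was 43.7 and 0.132 CPM. These 3 keratins fell, while Krt7, also a keratin of ducts, rose from 0.720 to 3.15 CPM (log2 2.11, SE 0.23, adjusted p = 7.14e-06). Among the rescue samples 8 of 16 fell and 2 rose in Cxcl5-/- cells, and with Hif1aOE 7 rose and 1 fell, Krt18 among the former at 345.6 CPM (log2 1.958, SE 0.11). In each of these 2 comparisons 4 of the 16 had a group at the floor.

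Of 20 other regulators of the transition, 6 were higher and 5 lower under the 3D Cxcl5-/- label. Twist2, the close relative of Twist1, was measured at 60.6 CPM in 2D WT and 22.1 CPM in 3D WT (log2 -1.46, SE 0.11, adjusted p = 2.38e-07), and at 12.4 CPM under the 3D Cxcl5-/- label (log2 -0.83, SE 0.11 against 3D WT). With Hif1aOE it rose to 24.6 CPM from a mean of 8.36 CPM in Cxcl5-/- cells (log2 1.56, SE 0.15) and with MycOE to 18.6 CPM (log2 1.15, SE 0.15). Foxq1, a forkhead factor that represses Cdh1 in other cells, was 15.6 against 3.66 CPM under the label (log2 2.09, SE 0.16), and 13.4 against 2.24 CPM in the rescue table (log2 2.57, SE 0.17). Tcf12 and Tcf4, E-proteins that pair with Twist factors, fell with Hif1aOE (log2 -1.29, SE 0.12, and -1.35, SE 0.13).

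Mesenchymal markers split differently in the comparisons of Cxcl5-/- with WT. Under the 3D Cxcl5-/- label 14 of 42 rose and 16 fell (median log2 fold change -0.37 beside -0.039 over all genes), and in rescue Cxcl5-/- cells 19 of 47 rose and 9 fell (median 0.16 beside -0.30). The rescue median over all genes was -0.014 when every sample had to hold at least 10 counts, and the list was not counted that way. Pdgfra, the receptor for platelet-derived growth factor A, was 213.9 against 21.4 CPM in 3D culture (log2 3.33, SE 0.10). In 2D culture Pdgfra was lower under the knockout label, at 9.10 against 23.0 CPM in 2D WT (log2 -1.34, SE 0.09). Dcn, a small proteoglycan, changed sign between the tables, at 2.82 against 37.7 CPM under the label and at 61.4 against 4.52 CPM in rescue Cxcl5-/- cells. Of the 47 markers, 7 rose and 22 fell with Hif1aOE (median -0.26, or -0.015 with genes at the floor set to their bound), and 7 rose and 20 fell with MycOE (median -0.66, or -0.63 in that way). The medians over all genes were 0 in both comparisons with genes at the floor set to their bound. Of 15 matrix partners of fibronectin and vimentin 10 fell and 2 rose with each, among them Fbln1, a fibronectin-binding fibulin, at 601.5 CPM in Cxcl5-/- cells, 152.3 CPM with Hif1aOE (log2 -1.98, SE 0.11) and 91.5 CPM with MycOE (log2 -2.72, SE 0.11). Itga5, which with Itgb1 forms the fibronectin receptor, fell with both (log2 -1.33, SE 0.10, and -1.72, SE 0.10). The 2 overexpression comparisons share their Cxcl5-/- samples.

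The TGF-β list held ligands, receptors and Smads of the pathway, which induces the transition in many epithelia, and also its antagonists Smad6, Smad7, Ski, Skil, Smurf1 and Smurf2 and the ligands Bmp4 and Bmp7. Of 16 tested 12 fell and 1 rose with Hif1aOE (median -0.45 beside 0.16 over all genes), and 10 fell and 1 rose with MycOE (median -0.72 beside 0.11). With genes at the floor set to their bound, the medians over all genes were 0 in both comparisons, and those of the list did not change. Antagonists were on both sides: Ski fell with Hif1aOE and MycOE (log2 -1.355 and -1.38), Skil fell with both (-0.29 and -0.43), Smurf1 fell with MycOE (-0.82), and Smad6 was the riser in each (0.65 and 1.23). Tgfb3 fell to 4.54 CPM with Hif1aOE (log2 -2.50, SE 0.14), and Tgfbr2 fell from 394.7 to 134.9 CPM with MycOE (log2 -1.55, SE 0.09). In rescue Cxcl5-/- against WT cells 8 of 16 rose and 2 fell, Tgfbr2 at 394.7 against 136.7 CPM (log2 1.53). Under the 3D Cxcl5-/- label, in contrast, Tgfbr2 was lower, at 175.4 against 268.7 CPM (log2 -0.62, SE 0.12), and 6 genes of the list rose and 7 fell. The lists of epithelial surface and secreted genes and of epithelial regulators are given as counts: with 3D culture in WT, 8 of 12 and 5 of 8 rose and 1 and 2 fell, and under the 3D Cxcl5-/- label 1 and 4 rose and 5 and 2 fell. In rescue Cxcl5-/- cells 2 of 19 and 2 of 15 rose and 7 and 6 fell, 4 of the fallers in each list with under 50 counts on average. There 6 of the 19 and 5 of the 15 had a group at the floor, beside the larger number of genes detected in the WT libraries, whose part was not tested. In M1-CM the secreted epithelial gene Lcn2, at 48.2 CPM against 0.0466 CPM in Ctrl (adjusted p = 0.00682), was the one list gene that passed.

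The genes whose levels ran most like each member over the 12 samples of 2D and 3D culture were found by the Pearson correlation of log2 CPM, as a description, since those samples form 4 groups and any gene with the same group means scores high. They were Isoc1 (0.996), Tbrg1 (0.989) and Tes (0.988) for Vim, Fyco1 (0.994), Tns1 (0.992) and Plekhm3 (0.991) for Fn1, and Pappa2 (0.991), Firre (0.987) and Bcas3 (0.987) for Zeb2. The values were lower for the other members, the closest being Gm2115 for Cdh2 (0.978), Dusp11 for Snai2 (0.97), Dnajc25 for Zeb1 (0.964) and Gm3839 for Snai1 (0.959).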

How the data were processed

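Paired reads of TruSeq Stranded Total RNA libraries came from a NovaSeq. The authors mapped them with HISAT2 (GRCm38) and deposited StringTie gene counts, which are not normalized. The annotation release, the conversion to counts and the strand setting are not given in the sources used here. All columns of values were used. Rows with an Ensembl ID but no symbol (1542 in 2D and 3D culture, 310 in the rescue table) held at most 0.205% and 0.0625% of the counts of a library and were kept. Samples were grouped by their labels. The cell line label of the rescue samples carries a running number, and the name in the paper, Panc02, was used.

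Counts were tested with edgeR 4.0.16 in R 4.3.3 (limma 3.58.1): TMM scaling, filterByExpr on the groups, 1 fit per table holding each of its groups and no covariate, the quasi-likelihood test, and Benjamini-Hochberg adjustment over the 19207 (media), 21367 (2D and 3D) or 28730 (rescue) genes tested. A gene was called at an adjusted p under 0.05, and the SE of a log2 fold change is its size over the square root of F. The script was tested on simulated data. No pair of libraries held the same values. The precision comes from the spread between samples and from the depth. A group with 3 counts or fewer in every sample was taken as at the floor. The interaction is the genotype effect in 3D minus that in 2D. Lengths, coordinates and overlaps come from GENCODE M21 (GRCm38), promoters from RefSeq. Tables were handled with Python 3.11.15, pandas 2.3.3 and numpy 2.4.6.

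The 10 members, the gene lists and the tests were chosen with earlier results of these data known. All members are named. From each list and comparison the rule took the strongest 3 risers and 3 fallers by log2 fold change among the genes called, without overlap of samples and with a mean count of at least 50, of which the text uses part, and Ctnnb1 and the antagonists in the TGF-β list were added after their values were seen. Genes most like a member were the 3 with the highest correlation among all genes tested outside the members (pseudocount 0.1). They were sought for members with a mean of at least 1 CPM. Alternatives were DESeq2 1.42.0, its size factors, library totals, no filter, a minimum of 10 counts in each sample, a fit of the compared groups alone, the replicate number as a block and each sample left out.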

Additional observations from a re-analysis of the deposited data

Results flagged for a closer look

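For 6 members the effect of the Cxcl5-/- label in 3D differed from its effect in 2D by the interaction test of edgeR, which is what flagged them. On the log2 scale the difference (3D effect minus 2D effect) was -1.91 for Cdh2, whose level rose in 2D and fell in 3D, and -1.65 for Vim, which fell in both. It was 1.42 for Fn1, 0.49 for Zeb1, 0.35 for Zeb2 and -1.01 for Snai2. The Zeb2 call was lost in 10 of the 12 fits without 1 sample, and the Snai2 call with library totals and without the filter on low counts. The Cxcl5 transcript was itself higher under the 3D Cxcl5-/- label than in 3D WT and lower under the 2D label. Summed levels of ductal and fibroblast markers differed between the 3D groups, so what else separates these libraries was not tested.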

How the results depend on the processing

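No count of members past the threshold moved by over 1.5 times under any alternative. Leaving out each sample in turn gave 0 in every comparison of media, 6 to 7 members for 3D WT against 2D WT, 2 to 3 for 2D Cxcl5-/- against 2D WT, 6 to 7 for 3D Cxcl5-/- against 3D WT, 5 in each fit for 3D against 2D Cxcl5-/-, and 5 to 6 for the interaction. In the rescue table it gave 5 for Cxcl5-/- against WT, 4 for Hif1aOE, 5 to 6 for MycOE and 5 to 6 for MycOE against Hif1aOE. Where 1 sample of a rescue group was left, it was assumed to vary like the other groups. Single values that changed sign were, in edgeR, Fn1 in M1-CM against Ctrl (-0.06 without Ctrl replicate 2 and -0.19 without M1-CM replicate 2, in a range of -0.19 to 0.80) and against M0-CM (-0.16 without M1-CM replicate 2, up to 0.70), Fn1 in 2D Cxcl5-/- against 2D WT (0.056 without 2D WT replicate 2, down to -0.18), Zeb1 in 3D against 2D Cxcl5-/- (0.0036 with library totals), Snai1 in rescue Cxcl5-/- against WT (0.063 without Cxcl5-/- replicate 1, down to -0.31) and Snai1 in Hif1aOE against Cxcl5-/- (-0.10 with library totals, -0.037 without Cxcl5-/- replicate 1, up to 0.34). None of these had passed the threshold, and the cause was not tested. The other calls that changed are given in the report.

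Library totals also turned the balance of calls over all genes: 7671 of 10116 called genes were higher in 3D Cxcl5-/- than in 3D WT, against 4218 of 9615 with TMM. DESeq2 called 97, 32 and 17 genes in the 3 comparisons of media (M1-CM against Ctrl, M1-CM against M0-CM, M0-CM against Ctrl) where edgeR called 3, 3 and 0, and 0 members by either. At an unadjusted p under 0.05 edgeR gave 903, 498 and 569 genes.

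The replicate numbers in the labels did not pair the samples in every case: the correlation of same-numbered samples' deviations ran from -0.24 to 0.36 in the media, and the other tables held pairs below 0.1 too. Between Ctrl and M0-CM same-numbered samples were at 0.36, 0.25 and 0.071 and the others at -0.28 to 0.036. With M1-CM the same-numbered values ran from -0.24 to 0.16 and the others from -0.29 to 0.29. Ctrl replicate 1 and M0-CM replicate 1 went more with M1-CM replicate 2 (0.29 and 0.26) than with M1-CM replicate 1 (-0.11 and -0.046). A block by replicate number does not take up such a pairing, so it is no check of the comparisons with M1-CM in that respect. With the number as a replicate block the counts of members were 0, 0 and 0 for the media, 7, 3, 7, 5 and 6 in 2D and 3D culture and 5, 4, 5 and 6 in the rescue table, and no call changed. With 0.5 counts added to both genes, the log2 ratio of Cdh2 to Cdh1 was 3.56 and 2.13 in the rescue WT libraries. No symbol had several entries, so summing entries was not run. Depth limits Cdh1, Epcam and Twist1, which stayed near the floor, and Snai2, which had 3 counts in Ctrl replicate 2 and 13 in a MycOE Cxcl5-/- library.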
